A study of Mus musculus with 64 samples.

Results

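Olfactory receptor genes code for the odour receptors of the nose, and each is a short gene that lies among near copies of itself. In the RefSeq gene table of mm10 (assembly GRCm38.p6), 239 protein-coding genes on chromosome 7 carry a symbol of the form Olfr followed by a number, out of 1110 such genes in the genome and 34324 protein-coding and lncRNA genes in the table. These 239 genes were selected on symbol and position, in a set that had been chosen by its peak coverage in these same lists, and 55 further Olfr entries of chromosome 7 that are not protein-coding were left out. Peaks of chromatin marks over them were read in splenic CD23+ B cells, which express no odour receptor as part of their known function. The genes were proposed for study with earlier results of these data known, so a comparison of the 239 with other genes is given as a description.

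The cells came from female F1 mus x cast mice, bred from C57BL/6 mothers with a heterozygous Xist deletion and M. m. castaneus fathers, a cross that skews X inactivation. All groups share this cross, and the labels do not say which animals inherited the deletion or how old the mice were. The other genes used for comparison include those of chromosome X, and the part of X inactivation in their values was not tested. B cells were unstimulated (0 h) or kept with 1 uM CpG, a ligand of the DNA sensor TLR9, for 12 or 24 h. CUT&RUN, in which an antibody guides a nuclease to its target on chromatin, was done for H3K27me3, H2AK119Ub, H3K9me3, H3K27ac, Suz12 and Ring1B, and 61 of 64 samples had a peak list, with 3 to 5 biological replicates for each antibody and time. The titles of the 12 H3K9me3 samples spell the mark H3K29me3, and H3K9me3 is taken from their antibody label. The other 3 samples, labelled IgG, were not analysed here, so there is no antibody background. The lists hold peaks of reads assigned to the Cast allele, and sequencing depth is unknown.

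Coverage was measured as the share, in percent, of each gene and its 2 kb flanks that lay under peaks. The median region of the 239 genes was 4954 bp. The lists differ in how much of the genome they cover. For H3K27me3 the autosomes were 1.21% to 3.84% covered at 0 h and 8.18% to 12.6% at 24 h. For H3K9me3 the 0 h lists covered 0.936% to 5.07% and the 24 h lists 8.87% to 10.5%. H2AK119Ub lists covered 1.13% to 2.38% of the autosomes at 0 h, against 2.40% to 8.65% at 24 h. The weakest peak kept also changed, with a highest signal of 9 to 10 at 0 h and 4 to 6 at 24 h for H2AK119Ub, and of 9 to 10 and 5 to 7 for H3K9me3. A rise in a covered percent therefore moves with the whole list, and its part in the gene results is given through a scaling to the autosomal coverage of each library.

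H3K27me3 is laid down by Polycomb repressive complex 2, of which Suz12 is a subunit, and H2AK119Ub by Polycomb repressive complex 1, whose catalytic subunit is Ring1B. Both mark silent genes of other lineages. H3K9me3 marks constitutive heterochromatin and silent repeats, and in olfactory neurons it is known to cover the receptor genes that a cell does not use. H3K27ac marks active promoters and enhancers. Olfactory receptor genes fall into class I, which in the mouse lies in 1 large cluster around the beta-globin genes, and class II, which is spread over many clusters. By a gap of at least 1 Mb, the 239 genes formed 7 clusters. Cluster 5, with 126 genes from Olfr543 to Olfr692 (chr7:102476773-105369317), holds the beta-globin genes Hbb-bs and Hbb-bt and is called class I here. The other 113 genes lie in clusters 1 (8 genes), 2 (2 genes), 3 (15 genes), 4 (2 genes), 6 (67 genes) and 7 (19 genes) and are called class II by position.

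RefSeq windows of 300 bases around the annotated gene start were matched for 209 of the 239 genes. Whether that start is where transcription begins was not tested, and in short entries it may be the start of the coding part. The windows are thus not shown to be promoters, and a comparison with the windows of other genes may set unlike positions side by side. The 7 printed here belong to genes on which the results turn, and they let a reader see how poor in CG these annotated starts are. Capitals mark CG dinucleotides, and each sequence is the gene's own strand, 5′ to 3′, in mm10. Olfr33, Olfr655 and Olfr713 gained H3K27me3, Olfr504 lost H2AK119Ub, Olfr307 held H3K9me3 at every time, Olfr623 gained H3K9me3, and Olfr46 had Ring1B peaks in every Ring1B library.
Olfr33: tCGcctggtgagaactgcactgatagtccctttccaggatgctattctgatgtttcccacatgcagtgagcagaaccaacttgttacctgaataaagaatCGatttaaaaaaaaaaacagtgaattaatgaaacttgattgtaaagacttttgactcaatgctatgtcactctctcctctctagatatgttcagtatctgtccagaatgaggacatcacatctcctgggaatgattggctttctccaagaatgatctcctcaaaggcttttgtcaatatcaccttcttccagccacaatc
Olfr655: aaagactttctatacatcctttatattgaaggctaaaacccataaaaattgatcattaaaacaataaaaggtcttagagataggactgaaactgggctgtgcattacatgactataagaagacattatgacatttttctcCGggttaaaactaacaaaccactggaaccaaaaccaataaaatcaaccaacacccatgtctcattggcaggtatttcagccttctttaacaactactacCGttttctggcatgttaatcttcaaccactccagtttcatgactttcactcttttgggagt
Olfr713: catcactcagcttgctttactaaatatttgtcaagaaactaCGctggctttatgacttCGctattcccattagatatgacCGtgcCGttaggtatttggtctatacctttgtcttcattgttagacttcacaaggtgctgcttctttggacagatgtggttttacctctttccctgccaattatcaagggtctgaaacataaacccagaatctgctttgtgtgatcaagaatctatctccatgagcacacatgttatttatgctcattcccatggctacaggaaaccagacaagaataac
Olfr504: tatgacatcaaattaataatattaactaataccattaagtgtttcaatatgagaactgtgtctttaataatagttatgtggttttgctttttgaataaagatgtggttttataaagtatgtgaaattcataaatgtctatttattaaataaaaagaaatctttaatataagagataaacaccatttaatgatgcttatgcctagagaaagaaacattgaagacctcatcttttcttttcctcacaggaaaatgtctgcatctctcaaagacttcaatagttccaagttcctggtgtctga
Olfr307: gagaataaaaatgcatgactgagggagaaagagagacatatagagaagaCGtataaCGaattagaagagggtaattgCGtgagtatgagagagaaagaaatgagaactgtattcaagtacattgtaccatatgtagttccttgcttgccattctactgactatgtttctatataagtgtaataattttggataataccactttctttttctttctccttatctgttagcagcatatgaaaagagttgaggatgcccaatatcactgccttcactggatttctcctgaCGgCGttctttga
Olfr623: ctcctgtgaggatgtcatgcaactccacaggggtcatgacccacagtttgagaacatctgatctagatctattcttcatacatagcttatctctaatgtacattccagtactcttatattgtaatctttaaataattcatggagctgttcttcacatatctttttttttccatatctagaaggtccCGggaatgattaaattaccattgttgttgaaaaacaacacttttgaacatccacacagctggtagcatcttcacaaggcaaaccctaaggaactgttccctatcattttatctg
Olfr46: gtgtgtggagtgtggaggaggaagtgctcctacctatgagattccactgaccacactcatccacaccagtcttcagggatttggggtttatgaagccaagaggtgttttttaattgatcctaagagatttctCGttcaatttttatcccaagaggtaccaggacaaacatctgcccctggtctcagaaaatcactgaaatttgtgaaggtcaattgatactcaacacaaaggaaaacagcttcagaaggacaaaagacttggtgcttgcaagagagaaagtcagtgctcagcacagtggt
The windows lie at chr7:102714362-102714661 on the minus strand for Olfr33, chr7:104597130-104597429 on the minus strand for Olfr655 and chr7:107035886-107036185 on the plus strand for Olfr713. Those of Olfr504, Olfr307 and Olfr623 lie at chr7:108565744-108566043, chr7:86336345-86336644 and chr7:103661269-103661568, all on the minus strand, and that of Olfr46 lies at chr7:140601090-140601389 on the plus strand. They hold 2, 2, 4, 0, 5, 1 and 1 CG dinucleotides in the order printed. Over all 209 windows the median was 1 CG and a GC content of 37.0%, and 71 windows (34.0%) held no CG. Over the windows of 27025 genes in the table the median was 7 CG and 52.7%, and 5.78% held none. The 735 windows of other Olfr genes were like those of chromosome 7, with a median of 1 CG and 34.7%, and 33.3% held none. Class of mark made little difference to this count: the median was 1 CG in the 24 windows of genes with H3K27me3 in at least 3 libraries and 1 CG in the 53 windows of genes with H3K9me3 in at least 3.

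3 short motifs were searched on both strands of the same windows. TATAAA, the core of the TATA box, was present in 42.6% of the 209 windows, 40.7% of the 735 windows of other Olfr genes and 14.2% of all windows. TAATTA, a homeodomain core such as Lhx2 binds, was present in 13.4%, 20.1% and 5.31% of these sets. CCCNNGGG, a core of the type that Ebf factors bind, was present in 4.31%, 2.72% and 13.4%. Of the windows printed, those of Olfr655 and Olfr504 hold TATAAA, and none of the 7 holds the other motifs. A match describes letters only, in a window that may not hold the promoter. The sets differ in GC content, and the part of base composition in these shares was not tested.

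H3K9me3 had the highest mean coverage of these genes among the 6 antibodies at each time, and its coverage was higher after CpG. By number of genes with a peak in at least 1 library it was not first, with 86 genes against 88 for Suz12 and 90 for Ring1B. At 0 h the mean over the 239 genes, zeros included, was 4.00% ± 2.297 (SD, n = 4). At 12 h it reached 11.7% ± 0.875 (n = 4), and at 24 h 15.0% ± 0.989 (n = 4). The lowest and highest libraries were 1.44% and 6.74% at 0 h, 10.7% and 12.5% at 12 h, and 14.2% and 16.4% at 24 h, so the 3 times did not overlap. Between 4 and 21 genes had a peak in a library at 0 h and between 51 and 63 at 24 h. With each library scaled to its autosomal coverage, the 24 h minus 0 h difference of 11.01 percentage points became 1.28, and with an equal number of the strongest peaks in each list it became -0.63.

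Within a library, the mean of these genes was 1.33 to 1.69 times the covered percent of the autosomes, in 12 of 12 libraries. It was 8.93 to 12.2 times the mean of the 20517 protein-coding genes that are no Olfr, and 1.78 to 2.90 times the mean of the 871 Olfr genes of other chromosomes, higher in 12 of 12 libraries each. The other Olfr genes had means of 2.00% ± 1.18 at 0 h and 7.18% ± 0.7004 at 24 h (n = 4 each). The 41 genes of other families that lie between the Olfr genes of a cluster were also lower in 12 of 12 libraries, with 3.29% ± 1.60 at 24 h (n = 4). The excess at 0 h leaned on the 15 genes of cluster 3, whose mean was 39.6% ± 22.2 (n = 4). At that time class I was at 2.37% ± 1.46 and cluster 6 at 0.93% ± 1.09 (n = 4 each), and clusters 1, 2, 4 and 7 were at 0%. Outside cluster 3 the genes thus did not stand clearly above the other Olfr genes before stimulation. Of the 239 genes, 63 (26.4%) had an H3K9me3 peak in at least 3 libraries, against 121 of the 871 other Olfr genes (13.9%) and 102 of 2413 protein-coding genes with regions of like length (4.23%).

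**Figure D1:**
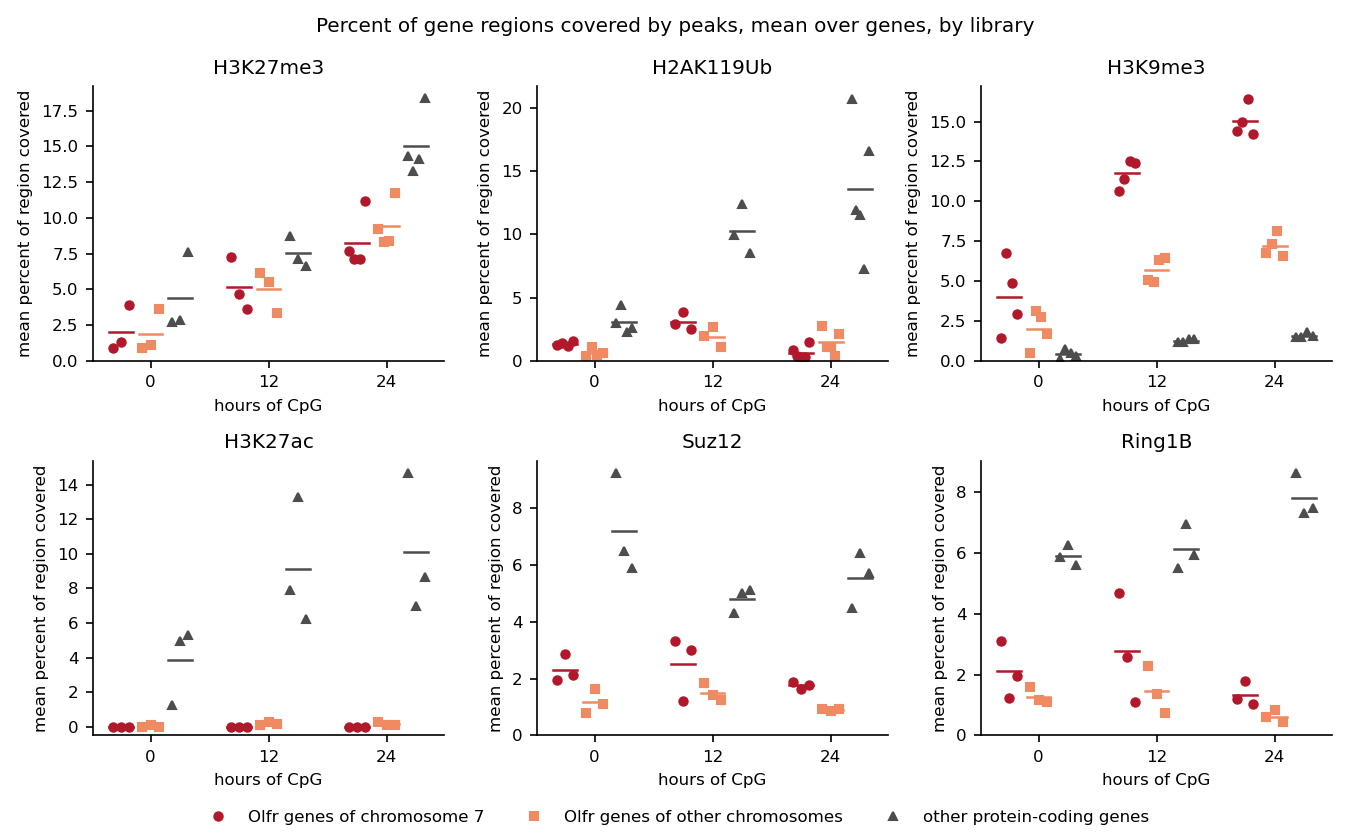
Each point is 1 library: the mean percent of the gene region covered by peaks (y axis) over the 239 Olfr genes of chromosome 7, the 871 Olfr genes of other chromosomes and the 20517 other protein-coding genes, by hours of CpG (x axis), with a bar at the mean of the libraries. The chromosome 7 genes lie above both other groups for H3K9me3, below the other protein-coding genes for the other marks, and at 0 in the 9 H3K27ac libraries.

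The H3K9me3 test across genes was a limma F-test over the 3 times, on the 2332 genes of the table with a peak in at least 3 H3K9me3 libraries, with Benjamini-Hochberg adjustment and a threshold of 0.05. Of the 63 chromosome 7 genes that entered it, 16 were called, where 52.3% of all genes tested were called. Of the 63, 15 were higher at 24 h than at 0 h, where 51.4% of all genes tested were. These 15 are among the 16 called, and none of the 16 was lower at 24 h than at 0 h. Also of the 63, 9 were higher at 12 h than at 0 h, where 39.5% of all genes tested were. Between 12 and 24 h, 6 of the 63 were higher at 24 h, where 15.2% were, and 1 was lower, where 0.858% were. The share of the chromosome 7 genes called over the 3 times is thus below that of the genes tested as a whole. The median difference of 24 h minus 0 h was 35.3 percentage points over the 63 genes. It was 26.3 over the 121 Olfr genes of other chromosomes tested and 22.6 over all tested. Regions of other protein-coding genes are longer (median 22988 bp against 4954 bp), and the part of length in this was not tested. The count of 16 was 10 without replicate 4 at 0 h, 10 on the gene body alone, 6 with the autosomal scaling, 4 with the stronger peaks of each list and 0 with an equal number of peaks, where 6 of the genes could be tested.

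Among the called genes, the 5 with the largest rise from 0 to 24 h all lay in the class I cluster. Olfr617 was covered at 0, 0, 0 and 0% at 0 h, 100, 100, 100 and 0% at 12 h and 100, 100, 100 and 100% at 24 h. Replicate 4 at 12 h was the library that stood with the 0 h samples. The difference of 24 h minus 0 h was 100 percentage points (SE 19.3, limma adjusted p = 0.00461). Olfr617, and Olfr618, Olfr619 and Olfr623 below, were at 0% in all 0 h libraries. They entered the test through their 12 and 24 h libraries alone, so their p-values are no independent support.

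Olfr623, in the same cluster, was at 0% in the 4 libraries of 0 h, 91.2, 99.0, 89.0 and 100% at 12 h and 100, 48.1, 83.0 and 69.6% at 24 h. The 0 h values did not overlap those of either later time, and the difference of 24 h minus 0 h was 75.2 points (SE 9.92, limma adjusted p = 0.000194). Its window printed above lay wholly within a peak in 4 of 4 libraries at 12 h, in 3 of 4 at 24 h and in 0 of 4 at 0 h.

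Olfr619 was at 0% in the 4 libraries of 0 h, 84.7, 100, 91.0 and 83.8% at 12 h and 100, 89.0, 100 and 12.6% at 24 h. Replicate 4 at 24 h was low, and the difference was 75.4 points (SE 16.7, limma adjusted p = 0.00325). This call was lost with the stronger peaks of each list alone.

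Olfr618, between Olfr617 and Olfr619, was at 0% in the 4 libraries of 0 h, 0, 100, 52.4 and 10.1% at 12 h and 100, 65.4, 100 and 100% at 24 h. The 12 h libraries ran from the level of 0 h to that of 24 h, and the difference of 24 h minus 0 h was 91.3 points (SE 18.7, limma adjusted p = 0.00739). Olfr609 was at 0, 0, 24.4 and 0% at 0 h, 100, 24.0, 0 and 98.0% at 12 h and 64.9, 69.3, 100 and 100% at 24 h, a difference of 77.5 points (SE 21.3, limma adjusted p = 0.0282). Its call was lost with the autosomal scaling, with the stronger peaks alone, and without replicate 1, 2 or 4 at 0 h or replicate 3 or 4 at 24 h.

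Olfr611 differed in time course and is named here after its values were seen. It was covered at 27.4, 39.9, 34.4 and 0% at 12 h and at 0% in the 8 libraries of 0 and 24 h (limma adjusted p = 0.0135 over the 3 times). Olfr611 entered the test through its 12 h libraries alone, so its p-value is no independent support. The remaining called genes lay in the class I cluster (Olfr585, Olfr613, Olfr624, Olfr629, Olfr630), in cluster 2 (Olfr290), in cluster 3 (Olfr299, Olfr295) and in cluster 6 (Olfr483, Olfr485). Of these, Olfr483 entered the test through its 24 h libraries alone, so its call is no independent support.

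Cluster 3 carried H3K9me3 before stimulation. The 3 genes with the highest mean over the 12 H3K9me3 libraries, Olfr307, Olfr292 and Olfr297, all lie in it. Olfr307 was at 100, 100, 100 and 100% at 0 h, 69.5, 100, 71.9 and 100% at 12 h and 100, 76.2, 100 and 100% at 24 h, and was not called (limma adjusted p = 0.430). Olfr292 was at 0, 100, 100 and 86.6% at 0 h, and Olfr297 at 0, 100, 100 and 0%. Both were above 67% in all 8 later libraries, and neither was called (limma adjusted p = 0.530 and 0.117). Of the whole 427 kb span of cluster 3, 34.4% ± 13.7 (n = 4) was covered at 0 h and 54.2% ± 1.73 (n = 4) at 24 h. The class I span was at 1.55% ± 1.00 and 12.8% ± 1.69, and the cluster 7 span at 0% and 0.614% ± 0.709.

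H3K9me3 lay over runs of neighbouring genes. A run is taken as at least 3 neighbours whose group mean was 50% or more. At 24 h there were 3 runs: 7 genes from Olfr308 to Olfr299 over 149 kb in cluster 3 (chr7:86319024-86468405), 3 genes from Olfr608 to Olfr610 (chr7:103468041-103508944) and 9 genes from Olfr615 to Olfr624 over 115 kb (chr7:103558479-103673029), both in class I. At 0 h the only run was Olfr307, Olfr305 and Olfr304. Single peaks reached 65.2 kb and touched up to 4 of the genes, so neighbours in a run are not independent of each other.

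**Figure D2:**
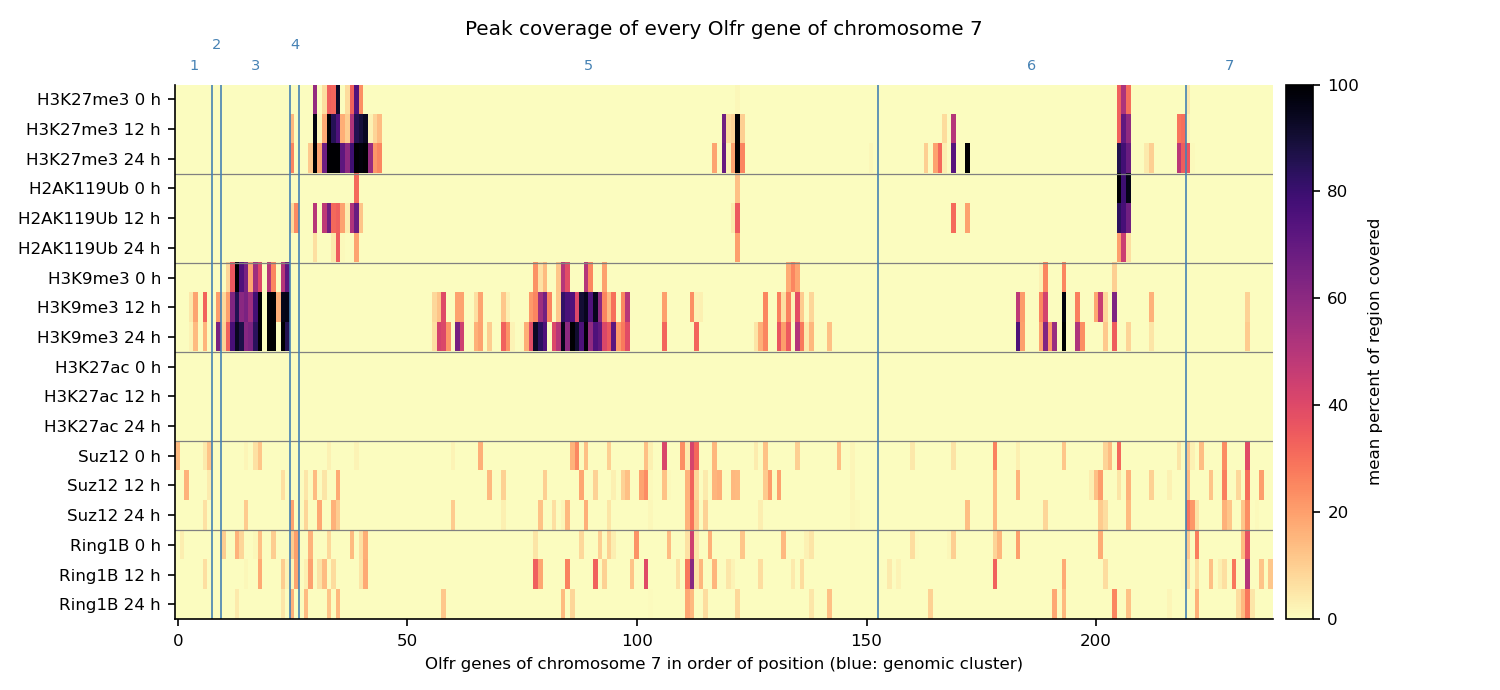
Every column is 1 of the 239 Olfr genes in order along chromosome 7 (x axis, gene order), with the 7 genomic clusters numbered in blue, and every row is an antibody and time. Colour is the mean percent of the gene region covered over the 3 to 5 libraries, and the H3K9me3 blocks of clusters 3 and 5 sit on other genes than the H3K27me3 and H2AK119Ub blocks of clusters 5 and 6.

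H3K27me3 covered fewer of the genes, mainly in class I, and its coverage was also higher after CpG. Averaged over the 239 genes it was 2.02% ± 1.62 in the 3 libraries of 0 h, 5.18% ± 1.88 in the 3 of 12 h and 8.27% ± 1.94 in the 4 of 24 h (SD). Libraries ran from 0.886% to 3.88% at 0 h, from 3.60% to 7.25% at 12 h and from 7.11% to 11.2% at 24 h, so 0 h and 24 h did not overlap while 12 h overlapped both. With the autosomal scaling the 24 h minus 0 h difference of 6.25 percentage points became -0.37, and with an equal number of peaks 0.19.

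Within a library the genes were at 0.734 to 1.36 times the autosomal percent, below the other protein-coding genes in 10 of 10 libraries (0.330 to 0.83 times) and near the Olfr genes of other chromosomes (0.834 to 1.19 times, higher in 4 of 10). Class I exceeded class II in 10 of 10 libraries. At 24 h the class I mean was 10.7% ± 1.87 and the class II mean 5.58% ± 2.03 (n = 4 each).

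Of the 239 genes, 27 had an H3K27me3 peak in at least 3 of 10 libraries and entered the test, and 10 were called, where 56.9% of the 11912 genes tested were called. The 10 were all higher at 24 h than at 0 h, so 10 of the 27 tested, where 56.5% of all genes tested were. The share of the 27 called is below that of the genes tested as a whole. The median difference was 48.6 percentage points over the 27, 52.4 over the 118 Olfr genes of other chromosomes tested and 28.9 over all tested. Regions of other protein-coding genes are longer (median 22988 bp against 4954 bp), and the part of length in this was not tested. Of the 27, 5 were already higher at 12 h than at 0 h, where 8.4% of all genes tested were. The other 5 called genes were higher at 24 h than at 12 h, so 5 of the 27, where 46.4% of all genes tested were. The count of 10 was 6 without replicate 1 or without replicate 2 at 0 h, 5 with the autosomal scaling and 0 with an equal number of peaks, where 2 of the genes could be tested.

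Olfr713, in cluster 6, was at 0% in all 3 libraries of 0 h and all 3 of 12 h, and at 100, 100, 100 and 98.7% at 24 h. No library of 24 h came near the others, and the difference of 24 h minus 0 h was 99.7 points (SE 5.68, limma adjusted p = 2.27e-05). Olfr713 entered the test through its 24 h libraries alone, so its p-value is no independent support.

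Olfr33 and Olfr655, both in the class I cluster, rose by 12 h. Olfr33 was at 0, 0 and 0% at 0 h, 100, 81.0 and 100% at 12 h and 97.7, 100, 100 and 100% at 24 h (difference of 24 h minus 0 h 99.4 points, SE 7.98, limma adjusted p = 0.000105). Its call was lost with the stronger peaks of each list alone. Olfr33 entered the test through its 12 and 24 h libraries alone, so its p-value is no independent support. Olfr655 was at 0, 0 and 4.53% at 0 h and at 100% in all 7 later libraries (98.5 points, SE 6.98, limma adjusted p = 8.95e-05). For both genes the 0 h values lay apart from all later ones. The windows printed above were wholly inside a peak in 3 of 3 libraries at 12 h and 4 of 4 at 24 h for both, and that of Olfr713 in 4 of 4 at 24 h.

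Olfr558, a class I receptor known from vascular smooth muscle, was at 0, 22.3 and 49.1% at 0 h, 100, 80.3 and 87.3% at 12 h and 91.7, 100, 100 and 100% at 24 h. The groups of 0 and 24 h did not overlap (74.1 points, SE 11.7, limma adjusted p = 0.00228), and the call was lost with the autosomal scaling and with an equal number of peaks. Olfr78, a class I receptor known from kidney and carotid body, was at 0% in the 3 libraries of 0 h, 26.3, 0 and 0% at 12 h and 0, 21.9, 0 and 65.1% at 24 h, and was not called (limma adjusted p = 0.377). Olfr6, in cluster 6, was at 0, 0 and 0%, then 78.1, 0 and 72.1%, then 96.6, 46.4, 66.4 and 84.2% (73.4 points at 24 h against 0 h, SE 18.9, limma adjusted p = 0.0257). The Olfr6 call was lost without any one of the 0 h replicates, without replicate 4 at 24 h, with the autosomal scaling and on the gene body alone. Olfr6 also entered the test through its 12 and 24 h libraries alone, so its p-value is no independent support.

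The genes with the highest mean H3K27me3 carried it before stimulation. Olfr553 was at 77.4, 100 and 100% at 0 h, 100, 77.6 and 48.1% at 12 h and 100% in the 4 libraries of 24 h. Olfr557 was at 69.5, 100 and 53.2% at 0 h and Olfr547 at 64.8, 9.43 and 100%, and both were at 100% in the 4 libraries of 24 h. None of these was called (limma adjusted p = 0.198, 0.246 and 0.109). With the autosomal scaling the Olfr553 difference of 24 h minus 0 h, 7.53 points, became -262 scaled points and was called, lower at 24 h. That direction is set by the scaling, as Olfr553 was near full coverage at both times, so this call shows no loss.

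At 24 h, 11 neighbouring genes from Olfr550 to Olfr559, over 157 kb (chr7:102569431-102726488), each had a mean H3K27me3 coverage of 50% or more. This run holds 7 of the 10 called genes, which are Olfr550, Olfr551, Olfr554, Olfr555, Olfr558, Olfr33 and Olfr559. At 12 h the run was broken into 3 genes (Olfr551 to Olfr553) and 4 genes (Olfr556 to Olfr33), and at 0 h no 3 neighbours reached 50%. The other run at 24 h was Olfr502, Olfr503 and Olfr504 in cluster 6 (chr7:108521004-108567793).

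**Figure D3:**
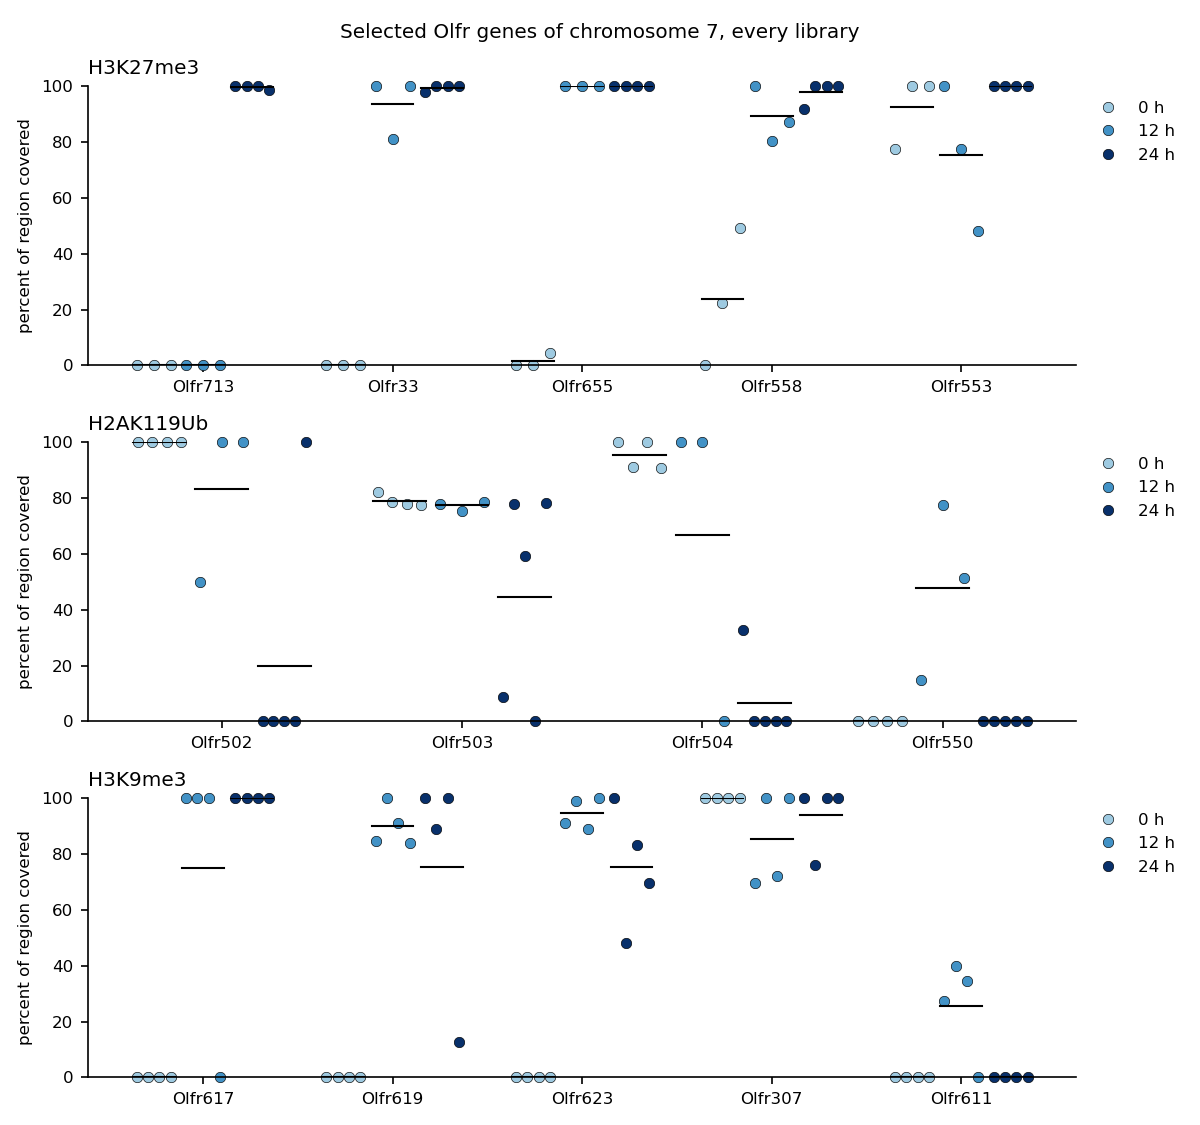
Percent of the gene region covered (y axis) in every library for selected genes (x axis), by mark and by hours of CpG (colour), with a bar at the mean. For H3K27me3 Olfr713 changes between 12 and 24 h and Olfr33 and Olfr655 between 0 and 12 h, for H2AK119Ub Olfr502 and Olfr504 are high at 0 h and mostly at 0% at 24 h, and for H3K9me3 Olfr307 is high from 0 h.

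H2AK119Ub was sparse over the genes. The 4 libraries of 0 h had a mean over the 239 genes of 1.33% ± 0.162, the 3 of 12 h one of 3.07% ± 0.688 and the 5 of 24 h one of 0.652% ± 0.514 (SD). Libraries ran from 1.17% to 1.54% at 0 h, from 2.48% to 3.82% at 12 h and from 0.264% to 1.46% at 24 h, so 12 h lay above both other times. From 0 to 24 h the class I mean went from 0.352% ± 0.352 (n = 4) to 0.672% ± 0.658 (n = 5), a difference within the spread between replicates. The mean of cluster 6, which holds Olfr502, Olfr503 and Olfr504, went from 4.096% ± 0.0986 (n = 4) to 1.06% ± 0.989 (n = 5). The mean of the other protein-coding genes was 3.08% ± 0.946, 10.3% ± 1.93 and 13.6% ± 5.18 at the same times. Relative to the autosomal percent of the same library, the chromosome 7 genes were at 0.580 to 1.07 times at 0 h (n = 4), 0.582 to 0.609 times at 12 h (n = 3) and 0.058 to 0.220 times at 24 h (n = 5). The groups of 0 and 24 h did not overlap in this ratio. At 0 h only 4 to 5 of the 239 genes had a peak in a library, and Olfr502, Olfr503 and Olfr504 had means of 100, 79.0 and 95.5%. The 0 h mean and the fall in the ratio thus rest mainly on these neighbours. The mean of the 871 Olfr genes of other chromosomes went from 0.626% ± 0.314 at 0 h (n = 4) to 1.47% ± 0.934 at 24 h (n = 5).

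8 of the 239 genes had an H2AK119Ub peak in at least 3 of 12 libraries and entered the test, and 3 were called, where 33.2% of the 13842 genes tested were called. Olfr502 and Olfr504 were lower at 24 h than at 0 h, where 0.296% of all genes tested were lower, against 31% that were higher. Olfr502, Olfr504 and Olfr550 were lower at 24 h than at 12 h, where 2.27% of all genes tested were. Olfr550 was also higher at 12 h than at 0 h, where 22% of all genes tested were. The count of 3 was 5 with the autosomal scaling, and 5 among the 19 genes with a peak in at least 1 library.

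Olfr504 was at 100, 91.0, 100 and 90.8% at 0 h, 100, 100 and 0% at 12 h and 32.7, 0, 0, 0 and 0% at 24 h. The 0 h group lay above all libraries of 24 h, and Olfr504 fell by 88.9 points between them (SE 18.1, limma adjusted p = 0.010). Olfr502 was at 100% in the 4 libraries of 0 h, 49.8, 100 and 100% at 12 h and 0, 0, 0, 0 and 100% at 24 h, so that replicate 5 at 24 h kept full coverage. Olfr502 fell by 80 points between 0 and 24 h (SE 20.2, limma adjusted p = 0.0224), and the call was lost without replicate 1, 3 or 4 at 0 h.

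Olfr503, between them, was at 82.0, 78.6, 78.0 and 77.4% at 0 h, 78.0, 75.4 and 78.6% at 12 h and 8.57, 77.7, 59.1, 0 and 78.0% at 24 h. Its 24 h libraries ran from 0 to the level of 0 h, and it was not called (limma adjusted p = 0.155). It was called, lower at 24 h, with the autosomal scaling, which by itself lowers 24 h values of genes with like coverage at both times.

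The H3K27me3 values of the same 3 neighbours did not follow this course. Chosen after their H2AK119Ub values were seen, Olfr502 was at 0, 0 and 100% for H3K27me3 at 0 h and 100, 44.8, 100 and 100% at 24 h, and Olfr503 at 0, 78.4 and 78.3% and at 78.6, 78.6, 78.3 and 78.6%. Olfr504 was at 0, 0 and 91.3% and at 0, 83.5, 90.5 and 100%. None of these 3 was called for H3K27me3 (limma adjusted p = 0.227, 0.395 and 0.539).

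Olfr550, in the class I run, had H2AK119Ub at 12 h alone, with 14.8, 77.3 and 51.2% there and 0% in the 4 libraries of 0 h and the 5 of 24 h (limma adjusted p = 0.00910). It lies outside the rule for named genes and was chosen after its values were seen. Olfr550 entered the H2AK119Ub test through its 12 h libraries alone, so its p-value there is no independent support. For H3K27me3 it was at 0, 0 and 20.8% at 0 h, 39.0, 0 and 14.0% at 12 h and 54.9, 49.6, 78.5 and 85.9% at 24 h, with the later group above the earlier ones (limma adjusted p = 0.00674). Olfr558 had H2AK119Ub at 0, 17.3 and 19.6% at 12 h and at 0% in the other 9 libraries, and Olfr78 was at 0% in all 12.

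H3K27me3 and H3K9me3 lay on different genes. All 8 genes with H2AK119Ub in at least 3 libraries were among the 27 with H3K27me3 in at least 3, namely Olfr547, Olfr550, Olfr553, Olfr557, Olfr655, Olfr502, Olfr503 and Olfr504. None of the 27 was among the 63 genes with H3K9me3 in at least 3 libraries. With a peak in at least 1 library counted, 2 genes were shared, Olfr504 and Olfr510, which is 5.13% of the 39 H3K27me3 genes and 2.33% of the 86 H3K9me3 genes. In the 2413 protein-coding genes of like length the shared count was also 0, with 660 H3K27me3 genes and 102 H3K9me3 genes, so the count of 0 does not set the Olfr genes apart.

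By cluster, the spans of clusters 1, 2 and 3 had no H3K27me3 and no H2AK119Ub in any library, while 11.8% ± 7.01, 25.2% ± 6.22 and 54.2% ± 1.73 of them was covered by H3K9me3 at 24 h (n = 4 each). The cluster 4 span, with Olfr520 and Olfr521, was the most covered by H3K27me3, at 39.8% ± 21.9 at 24 h (n = 4) and 0% at 0 h (n = 3). The class I and cluster 6 spans were at 8.83% ± 1.52 and 8.97% ± 2.12 H3K27me3 at 24 h (n = 4 each). Cluster 7 was at or below 1.59% ± 2.14 for the 3 repressive marks at each time.

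**Figure D4:**
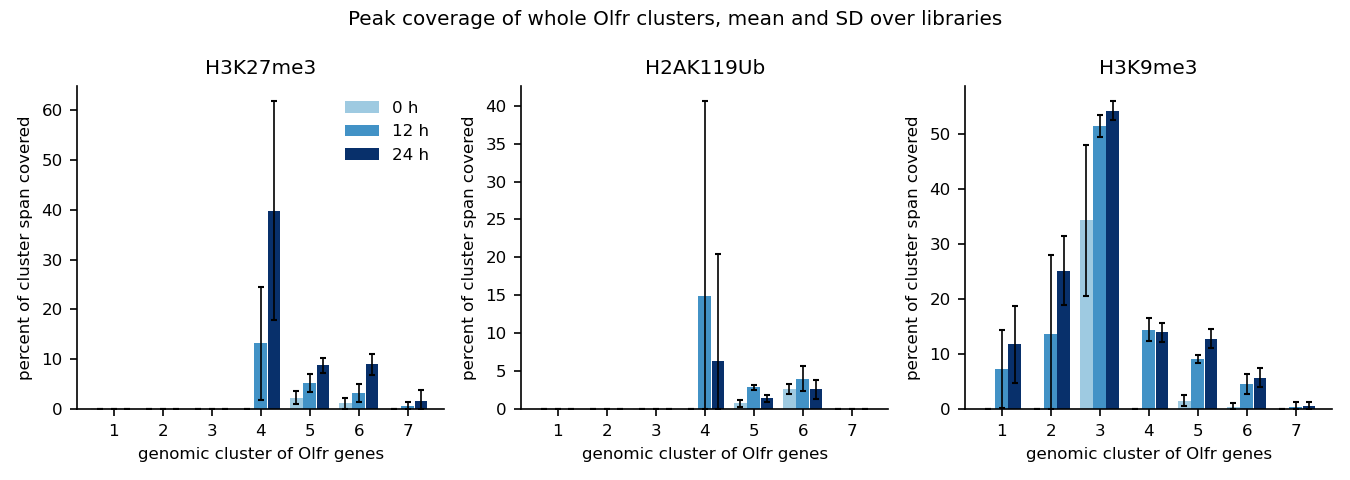
Bars give the percent of the span of each genomic cluster (x axis) covered by peaks, from its first to its last gene, as the mean over the libraries of a time (colour), and whiskers give the SD, stopped at 0 below. Cluster 3 has H3K9me3 at each time and no H3K27me3 or H2AK119Ub, and cluster 4 has the highest H3K27me3 at 24 h with the widest spread.

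Suz12 and Ring1B were scattered over the genes, and their lists were cut at a fixed share of the strongest signal. The mean over the 239 genes was 2.32%, 2.52% and 1.76% for Suz12 and 2.10%, 2.78% and 1.33% for Ring1B at 0, 12 and 24 h (n = 3 each), with SD of 0.491, 1.15 and 0.122 and of 0.943, 1.79 and 0.400. In each of the 9 libraries of either factor the genes were below the other protein-coding genes, at 0.212 to 0.772 times for Suz12 and 0.137 to 0.848 times for Ring1B. 14 genes had a Suz12 peak in at least 3 libraries, and 0 of them were called by limma, where 0% of the 18046 genes tested were called, with 1 of the 14 at an unadjusted p under 0.05. 7 genes had a Ring1B peak in at least 3 libraries, and 0 were called by limma, where 0.085% of the 17638 genes tested were called, with 0 of the 7 at an unadjusted p under 0.05.

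Olfr46, in cluster 7, was the gene with Ring1B in 9 of 9 libraries, at 44.0, 24.2 and 42.2% at 0 h, 52.3, 66.7 and 32.0% at 12 h and 23.1, 35.2 and 25.1% at 24 h. It also had Suz12 in 8 of 9 libraries, from 17.2% to 54.4% where present and 0% in replicate 3 at 12 h, and it had no H3K27me3 or H2AK119Ub peak in any library. H3K9me3 covered it in 3 of 12 libraries, at 37.4% in replicate 3 at 12 h and 21.0 and 21.7% in replicates 3 and 4 at 24 h (limma adjusted p = 0.449). Olfr643, in class I, was at 74.4, 0 and 51.9% for Suz12 and 89.6, 0 and 42.7% for Ring1B at 0 h. The third genes by mean were Olfr532 for Suz12, at 22.2% over all libraries, and Olfr642 for Ring1B, at 17.6% with a peak in 3 of 9 libraries. Of the 27 genes with H3K27me3 in at least 3 libraries, 2 had Suz12 in at least 3 (Olfr502 and Olfr522) and 2 had Ring1B in at least 3 (Olfr520 and Olfr558), which is 7.41% of the 27 in either case. Of all 239 genes 5.86% had Suz12 and 2.93% had Ring1B in at least 3 libraries, and of the other protein-coding genes 63.4% and 63.1%. Olfr558 had Ring1B at 17.6% in replicate 3 at 0 h and 4.05 and 12.1% in replicates 2 and 3 at 12 h, and Olfr78 had neither factor in any library.

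H3K27ac was absent from the lists over these genes. None of the 239 genes had a peak in any of the 9 libraries, so none could be tested, where 1.46% of the 9341 genes tested were called. With depth unknown, this says that no acetylation was detected. In the same libraries 7352 of 20517 other protein-coding genes (35.8%) and 494 of 2413 of like length (20.5%) had a peak in at least 3 libraries, and 4 of the 871 other Olfr genes (0.459%) did. All 16 B cell markers checked (among them Cd79a, Ms4a1 and Fcer2a, which codes for CD23) had H3K27ac in some library at 0 h and none had H3K27me3 or H3K9me3 in any, while 4 of the 5 that entered the H2AK119Ub test were higher at 24 h than at 0 h, against 31% of all genes tested. The 8 olfactory neuron markers, among them Omp, Gng13 and Stoml3, had no H3K27ac peak in any library.

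Among the 41 interspersed genes the marks were not the same as on the Olfr genes beside them. H3K27ac was highest over Gm36430, Trim30b, Trim30a, Ppfibp2 and Gm38525, at 31.4%, 31.0%, 27.9%, 25.2% and 22.4% over all 9 libraries. The Trim genes code for a family that includes antiviral restriction factors. H3K27me3 was highest over Cyb5r2, Gm38627, Trim6, Ovch2 and Olfml1, and Ovch2 rose from 0% ± 0 (n = 3) to 50.3% ± 6.25 (n = 4) at 24 h. H3K9me3 passed the 3-library filter over 1 interspersed gene, Usp17le, a deubiquitinase of a multicopy family, at 0% ± 0 at 0 h, 63.6% ± 8.06 at 12 h and 56.9% ± 7.90 at 24 h (n = 4 each), and it was called. The adult beta-globin genes Hbb-bs and Hbb-bt, in the middle of the class I cluster, had no peak of H3K27me3, H2AK119Ub, H3K9me3, H3K27ac or Suz12 in any library, and Hbb-bs had Ring1B in 1 library of 12 h.

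Of 17 olfactory signalling genes, which act with odour receptors, 11 entered the H3K27me3 test and 7 were higher at 24 h than at 0 h, where 56.5% of all genes tested were, with Stoml3, Gnal and Pde1c first by p. Stoml3, a stomatin-like protein of olfactory cilia, went from 0% ± 0 (n = 3) to 60% ± 31.0 (n = 4), and Gnal, the G protein subunit that odour receptors couple to, from 11.7% ± 6.43 to 44.2% ± 7.60. Pde1c, a phosphodiesterase, went from 1.71% ± 0.971 to 9.83% ± 3.29. For H2AK119Ub 8 entered and 2 were higher at 24 h, where 31% of all genes tested were, Pde4a (1.91% ± 2.21, n = 4, to 51.8% ± 16.5, n = 5) and Reep1 (0% ± 0 to 20.3% ± 12.0). For H3K9me3 1 entered and was higher, where 51.4% of all genes tested were, Pde1c (0% ± 0 to 9.67% ± 2.51, n = 4 each), and for H3K27ac 0 of 2 were called by limma, with Gnb1 at 15.4% ± 13.7 and 73.0% ± 15.4 and Cnga4 at 0% ± 0 and 14.2% ± 12.3 (n = 3 each), 1 of them at an unadjusted p under 0.05.

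Of 26 genes linked to receptor choice and its heterochromatin in the nose, 10 entered the H3K27me3 test and 7 were higher at 24 h than at 0 h, against 56.5% of all genes tested, Nfix, Ebf4 and Nfib first by p. Ebf4, a transcription factor of the Ebf family, went from 32.2% ± 22.6 (n = 3) to 88.5% ± 3.25 (n = 4), Nfix from 2.29% ± 3.97 to 17.2% ± 2.26, and Nfib from 0.316% ± 0.274 to 3.54% ± 0.835. For H2AK119Ub 11 entered and 6 were higher at 24 h, against 31% of all genes tested, with Cbx1, which codes for a heterochromatin protein that binds methylated H3K9, at 0% ± 0 (n = 4) and 15.3% ± 5.08 (n = 5), and Ebf2 and Nfix behind it. For H3K9me3 0 entered. For H3K27ac 15 entered and 1 was called, against 1.46% of all genes tested, Atf5, a transcription factor of the receptor feedback signal, at 0% ± 0 and 47.2% ± 0.945 (n = 3 each). For Suz12 0 of 13 and 0 of 22 genes of these lists were called by limma, with 0 and 1 at an unadjusted p under 0.05, and for Ring1B 0 of 12 and 0 of 24, with 0 and 3. Among those first by p, Pde4a went from 9.79% ± 1.99 to 5.11% ± 4.46 for Suz12 and Nfix from 0.79% ± 0.996 to 4.31% ± 0.771 for Ring1B (n = 3 each).

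The 239 genes differed in whether they had any peak at all. 67 (28.0%) had no peak in any of the 61 libraries, against 464 of 871 other Olfr genes (53.3%), 548 of 2413 protein-coding genes of like length (22.7%) and 2175 of 20517 other protein-coding genes (10.6%). The median gene had a peak in 2 libraries and the most covered, Olfr557, in 21. Of the 67, 31 lay in class I and 30 in cluster 6. Reads from near copies cannot be placed, and reads not assigned to the Cast allele are absent from the lists. The rule by which reads were filtered is not given in the sources used here, so a gene without a peak may be unmarked or unread. As a measure of close copies, a window was counted when it shared at least 1 stretch of 25 bases with the window of another Olfr gene. This held for 19 of 55 windows of genes without any peak (34.5%), 46 of 154 with a peak (29.9%), 16 of 53 with H3K9me3 in at least 3 libraries (30.2%) and 3 of 24 with H3K27me3 in at least 3 (12.5%). The 7 windows printed above shared none, except that of Olfr504, of whose stretches 29.3% were also in that of Olfr657.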

How the data were processed

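CUT&RUN peak lists of the Cast allele were used, 1 for each of 61 samples with replicates called separately. Per the submitters' processing notes, Trimmomatic 0.32, Bowtie2 2.3.4.1, Picard and deepTools 3.5.1 were used with mm10. Per the file names, the authors called SEACR peaks in its norm relaxed mode for the histone marks and at a fixed top share for Suz12 and Ring1B, so the length of those lists is no measure of occupancy. What version of SEACR ran, how alleles were split, which mapping filter applied and how deep each library was is not stated in the labels or headers. The deposited values are the signal of each peak, summed and at its highest, and only positions and the highest signal were used.

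Stronger peaks, used in an alternative, are those at or above the median highest signal of a list. Overlapping peaks were merged and the covered percent of each gene with 2 kb on each side was computed (Python 3.11.15, pandas 2.3.3, numpy 2.4.6). limma 3.58.1 (R 4.3.3), with trend and robust settings, gave an F-test over the 3 times for genes with a peak in at least 3 libraries of the antibody, with Benjamini-Hochberg adjustment over all genes tested and a threshold of 0.05. A called gene counts as higher or lower between a pair of times where that contrast had p under 0.05. A gene with peaks at 1 time alone entered the test through that time, so its p-value is no independent support. The same holds for a gene at 0% in all 0 h libraries, which entered through its later libraries. The test was tried on simulated data first. The labels number biological replicates, and whether they are separate animals is not stated, so p-values measure the spread between these samples. No pair of lists shared over 0.859% of its peaks. Neighbouring genes can share 1 peak.

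The genes, lists and named genes were chosen with earlier results of these data known. Named were, per antibody, the 5 called genes with the largest 24 h minus 0 h difference in each direction, the 3 with the highest mean, and Olfr78 and Olfr558. Of interspersed genes the 5 with the highest mean could be named, and of the lists the 3 smallest p. Gene starts are RefSeq windows (GRCm38.p6). A planned comparison of receptor proteins was not run, as no protein table was used here.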

Additional observations from a re-analysis of the deposited data

Results flagged for a closer look

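In groups of 4 or 5 libraries, 12 of 35 groups looked at had 1 library far from the rest by Dixon's test, where chance gives about 1 in 20. Groups in which all other libraries sit at 0 or 100% meet this test with a small gap. Replicate 4 of H3K27me3 at 24 h had a mean over the 239 genes of 11.2%, against 7.11% to 7.68% in the others, and a class I mean of 13.5%, against 9.65% to 9.87%. Replicate 1 of H3K27me3 at 24 h had Olfr558 at 91.7% and Olfr33 at 97.7%, and replicate 4 had Olfr713 at 98.7%, with the others at 100% for each gene. For H2AK119Ub at 24 h, Olfr502 was at 100% in replicate 5 and Olfr504 at 32.7% in replicate 1, with the others at 0%. For H3K9me3, Olfr609 at 0 h was at 24.4% in replicate 3 with the others at 0%. Replicate 4 of H3K9me3 at 12 h had a class I mean of 9.27%, against 11.3% to 11.5%, and Olfr617 at 0% with the others at 100%. At 24 h, Olfr618 was at 65.4% in replicate 2 with the others at 100%, and Olfr619 at 12.6% in replicate 4 with the others at 89.0% to 100%. Why these libraries differ was not tested.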

How the results depend on the processing

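Depth is unknown, no IgG list was used, and the lists grew with time, so scaling to autosomal coverage and an equal number of peaks per list were both tried. The mean 24 h minus 0 h difference over the 239 genes was 6.25 points for H3K27me3, 11.01 for H3K9me3 and -0.68 for H2AK119Ub, -0.37, 1.28 and -3.15 under the autosomal scaling, and 0.19, -0.63 and -1.21 with an equal number of peaks. With the stronger peaks alone it was 4.86 for H3K9me3 and went from -0.56 to 0.19 for Suz12. Leaving out 1 replicate gave 5.29 to 7.18 for H3K27me3, 10.2 to 11.9 for H3K9me3, -0.88 to -0.58 for H2AK119Ub, -0.74 to -0.28 for Suz12 and -1.20 to -0.26 for Ring1B. The number of genes called was 10, 16 and 3 for these marks, 5, 6 and 5 with the scaling, and 0 for H3K27me3 and H3K9me3 with an equal number of peaks, where 2 and 6 genes could be tested. It was 4 for H3K9me3 with the stronger peaks, 10 on the gene body alone, and 5 for H2AK119Ub with a peak in 1 library enough. Leaving out 1 replicate gave 6 to 11 (H3K27me3), 10 to 19 (H3K9me3) and 2 to 3 (H2AK119Ub). With the replicate number as a block the counts were 8, 19 and 3, and with scaling and block 3, 6 and 4. The numbers gave no clear pairing of the samples, as 0 same-numbered pairs correlated over 0.1 for any antibody. For these marks 4 of 9, 0 of 12 and 3 of 11 libraries correlated best with their own number. It was 1 of 9 for H3K27ac, 2 of 9 for Suz12 and 6 of 9 for Ring1B. Whether numbers stand for shared animals is not settled by this. Over all genes the H3K27me3 count went from 6773 to 2363 with scaling, 303 with an equal number of peaks, 4155 with the block and 873 with scaling and block. For H3K9me3 it went from 1219 to 776, 40, 1148 and 634, and for H2AK119Ub from 4595 to 5367, 649, 2192 and 3484. The 12 called genes named kept call and direction in 194 of 218 runs, lost the call in 24 and reversed in 0. Olfr618 lost its H3K9me3 call with scaling and block together (65.4 points, limma adjusted p = 0.0612) and in no other run. Olfr553, not called for H3K27me3, went from 7.53 to -262 scaled points. The cause of these changes was not tested.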
